A study of Mus musculus with 24 samples.

Results

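The microRNAs (miRNAs) of the Dlk1-Dio3 imprinted locus on mouse chromosome 12 were followed along the locus in whole eye, retina and sclera. A miRNA was counted as a member when at least 1 of its array probes maps, per the probe coordinates in the deposited files (mm9 build), between the Dlk1 side and the Dio3 side of the locus. This gave 80 of the 696 mouse miRNAs on the array, from 55 hairpins by name, with probes at chr12:110782806-110986159. The probes of miR-1906 also map to chrX, so its signal cannot be assigned to this locus alone. The study asked how 10 days of form deprivation change miRNA levels in the eye: in C57BL/6J mice a diffuser covered the right eye from postnatal day 24, and the left eye was the control. Total RNA was taken at 34 days of age and hybridised to 24 arrays, of which 12 held whole eye (6 per arm), 6 held retina (3 per arm) and 6 held sclera (3 per arm). The labels name no transgene or drug in any group. The labels give 15 mice in all (whole eye 6, retina 9, sclera 9) and do not say which animal or pool of animals an array held, so p-values measure only how far these samples spread, and that spread may be technical. The tissue counts exceed the total, so some mice gave more than 1 tissue. With the left eye as control, a mouse could also supply both arms. The main tests treat arrays as independent. The whole-eye arms are given alike by 3 label fields and contradicted by the free-text description. In the dissected tissues the sample titles contradict all other fields, so the arms there are called titled myopia and titled control, and the direction of a difference between them is not settled. Tissue comparisons do not depend on the arm.

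In placental mammals, the Dlk1-Dio3 domain expresses protein-coding genes such as Dlk1, Rtl1 and Dio3 from the paternal chromosome and long non-coding RNAs with embedded miRNAs from the maternal chromosome. The miRNAs lie in groups: some in an intron of the Meg3 transcript, a group antisense to the Rtl1 coding sequence (miR-431, miR-433, miR-127, miR-434 and miR-136), and the large miR-379 to miR-410 cluster in the Mirg transcript. They are known for high expression in brain, where the large cluster is induced by neuronal activity, and in embryonic tissue. A mature miRNA recognises its target messages mainly through the seed near its 5′ end, so neighbours with different seeds have different predicted targets.

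The mature sequences of the members on which the results turn are given 5′ to 3′ from RefSeq (GRCm38.p6), with the seed, bases 2 to 8, in capitals. Of the 80 members, 75 were matched by name, 74 of them on the plus strand and miR-299b-5p on the minus strand. miR-299-3p, miR-376c-3p, miR-487b-3p, miR-485-5p and miR-496-3p are named only. The first set comprises members whose level was higher in sclera than in retina under every scaling tried, in order along the locus, so that the unequal seeds of physical neighbours can be seen.
miR-337-5p: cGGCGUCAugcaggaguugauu
miR-431-5p: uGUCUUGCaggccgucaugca
miR-379-5p: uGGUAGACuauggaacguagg
miR-411-5p: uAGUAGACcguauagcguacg
miR-411-3p: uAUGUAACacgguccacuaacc
miR-299b-5p: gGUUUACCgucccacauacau
miR-329-3p: aACACACCcagcuaaccuuuuu
miR-494-3p: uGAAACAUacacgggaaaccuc

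The second set comprises members whose level was higher in retina than in sclera in at least 4 of the 5 scalings, including close family members of each other.
miR-433-3p: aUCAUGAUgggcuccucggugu
miR-434-3p: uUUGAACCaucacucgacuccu
miR-323-3p: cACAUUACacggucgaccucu
miR-495-3p: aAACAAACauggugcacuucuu
miR-376b-3p: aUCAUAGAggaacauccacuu
miR-376a-3p: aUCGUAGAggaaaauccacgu
miR-300-3p: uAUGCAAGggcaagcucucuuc
miR-381-3p: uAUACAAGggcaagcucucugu
miR-410-3p: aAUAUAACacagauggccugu

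Sequences of 3 further members are shown because a difference between arms turned on miR-3072-5p and miR-673-3p, and because miR-431-3p is the other strand of miR-431-5p.
miR-431-3p: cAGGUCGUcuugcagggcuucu
miR-673-3p: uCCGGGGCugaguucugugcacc
miR-3072-5p: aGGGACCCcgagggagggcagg

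The 75 sequences held 74 distinct seeds, and the pair that shares one is miR-376c-5p and miR-376b-5p (seed UGGAUAU), of which miR-376c-5p was detected on no array. No 2 tested members with a sequence share a seed. Physical neighbours on the chromosome thus carry separate seeds. Set against the RefSeq sequences, the probes of miR-299b-5p also match miR-299a-5p exactly, so these 2 mature forms cannot be told apart. For 7 members every probe lies within 1 mismatch of a miRNA of another name. Among the 7, miR-299-3p and miR-496-3p have no entry by their array name and match miR-299a-3p and miR-496a-3p exactly. Those may be other names of the same miRNAs.

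Between 39 and 55 members were detected per array, with a median of 52 in retina, 43.5 in sclera and 43.5 in whole eye. Detection is Agilent's own call that a miRNA's signal exceeds its error. A total of 35 members were detected on all 24 arrays (43.8%, against 34.1% of all 696 miRNAs) and 22 on none (27.5%, against 34.6%). Levels below are summed probe signals as a percent of the 75th percentile of the same array (taken across miRNAs that every array of the comparison detected), and differences are on the log2 scale of that quantity. The divisor itself, in scanner units, ran from 424 to 1250 in sclera, 1580 to 2240 in retina and 1130 to 1740 in whole eye, so sclera arrays were the dimmest. In bulk tissue, fewer cells of a type and less of a miRNA per cell cannot be told apart. The levels of different miRNAs are not compared, since probes differ in response.

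The tissue labels were checked against marker miRNAs. All 5 markers of retinal neurons and all 4 photoreceptor and sensory markers were higher in retina than in sclera, with median differences of 4.64 and 4.34. The summed neuronal markers ran from 9450 to 10200 percent in retina and from 147 to 696 percent in sclera. Of 9 fibroblast and mesenchymal markers, 7 were lower in retina and 2 were higher, with a summed level of 3670 to 4240 percent in sclera and 485 to 591 percent in retina, where miR-214-3p was not detected. All 5 skeletal muscle markers were also lower in retina, summing to 377 to 719 percent in sclera and 24.7 to 43.1 percent in retina. These cell-type differences move with every retina-sclera difference given below, and their part in it was not tested.

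Members of the locus differed in both directions between retina and sclera. Of the 54 members tested in the tissue comparisons, 10 were lower in retina than in sclera under each of the 5 ways of scaling the arrays, and 4 were higher under each (limma with Benjamini-Hochberg adjustment over all miRNAs tested, n = 6 and 6). The 10 lower members were miR-337-5p, miR-431-5p, miR-379-5p, miR-411-5p, miR-411-3p, miR-299b-5p, miR-299-3p, miR-329-3p, miR-494-3p and miR-541-5p. The 4 higher members were miR-434-3p, miR-376a-3p, miR-487b-3p and miR-410-3p. With the array percentile used throughout, 36 members were higher and 10 lower, against 58.7% higher and 30.5% lower (89.2% either way) among the 426 miRNAs tested. The number higher turned with the scaling: it was 22 with the percentile over all miRNAs, 26 after quantile normalization, 22 in the authors' value table and 6 after normexp background correction, where 34 were lower. The corresponding splits of all tested miRNAs were 42.3% higher and 40.4% lower, 47.9% and 38.7%, 38.0% and 44.6%, and 16.0% and 57.3%. The median of all miRNAs moved with it, at 0.81, 0.08, 0.20, -0.07 and -0.87 in the same 5 settings (percentile used here, all miRNAs, quantile, authors' table, normexp), and the members' median was 0.99, 0.21, 0.25, -0.09 and -0.91. As a whole the members thus lay close to the median of all miRNAs in this comparison, with 29 of 54 above it, while single members lay far to both sides.

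The members higher in sclera were led by the start of the miR-379 to miR-410 cluster. miR-299b-5p, read by probes that also match miR-299a-5p exactly, was at 31.8, 37.4 and 49.4 percent (lowest, median, highest of 6 arrays) in sclera. It was at 2.36, 2.66 and 2.85 percent in retina and 4.42, 6.05 and 7.91 percent in the 12 whole-eye arrays. No retina array reached a sclera array, and the difference was -3.85 ± 0.15 (SE), a 14.4-fold lower level in retina (limma adjusted p = 1.50e-15). Relative to the median of all miRNAs it was -4.66, and between -4.76 and -1.43 over the 5 scalings.

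miR-379-5p, the first member of the cluster, was at 39.6, 44.6 and 47.1 percent in sclera and 11.2, 12.2 and 13.3 percent in retina, with no overlap. The difference was -1.86 ± 0.11, or 3.62-fold (limma adjusted p = 2.24e-12, n = 6). Its neighbour miR-411-5p stood at 14.2, 19.7 and 22.2 percent in sclera and 4.02, 4.65 and 5.07 percent in retina, a difference of -2.04 ± 0.14 (limma adjusted p = 1.43e-11). The whole-eye medians of 10.2 percent for miR-379-5p and 4.15 percent for miR-411-5p lay near those of retina, not of sclera.

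miR-299-3p was detected on 6 of 6 sclera arrays, at 1.56 to 5.03 percent, on 0 of 6 retina arrays and on 1 of 12 whole-eye arrays, so its level was at least 7.28-fold higher in sclera than in retina. The bound sets the sclera mean against the highest of the retina arrays' lowest detected signal, the miRNA's own signal and the floor of the scale. The 3p strand of miR-411 was lower in retina by 2.47-fold and miR-329-3p by 1.96-fold, each without overlap. miR-494-3p was at 25.8 to 41.5 percent in sclera, 22.4 to 40.5 percent in whole eye and 11.1 to 13.6 percent in retina. It thus stood apart in retina, while sclera and whole eye overlapped and differed by -0.02 ± 0.10 (limma adjusted p = 0.897). miR-541-5p, the weakest of the 10, differed by -0.19 ± 0.09 with overlapping arrays (limma adjusted p = 0.042).

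**Figure D1:**
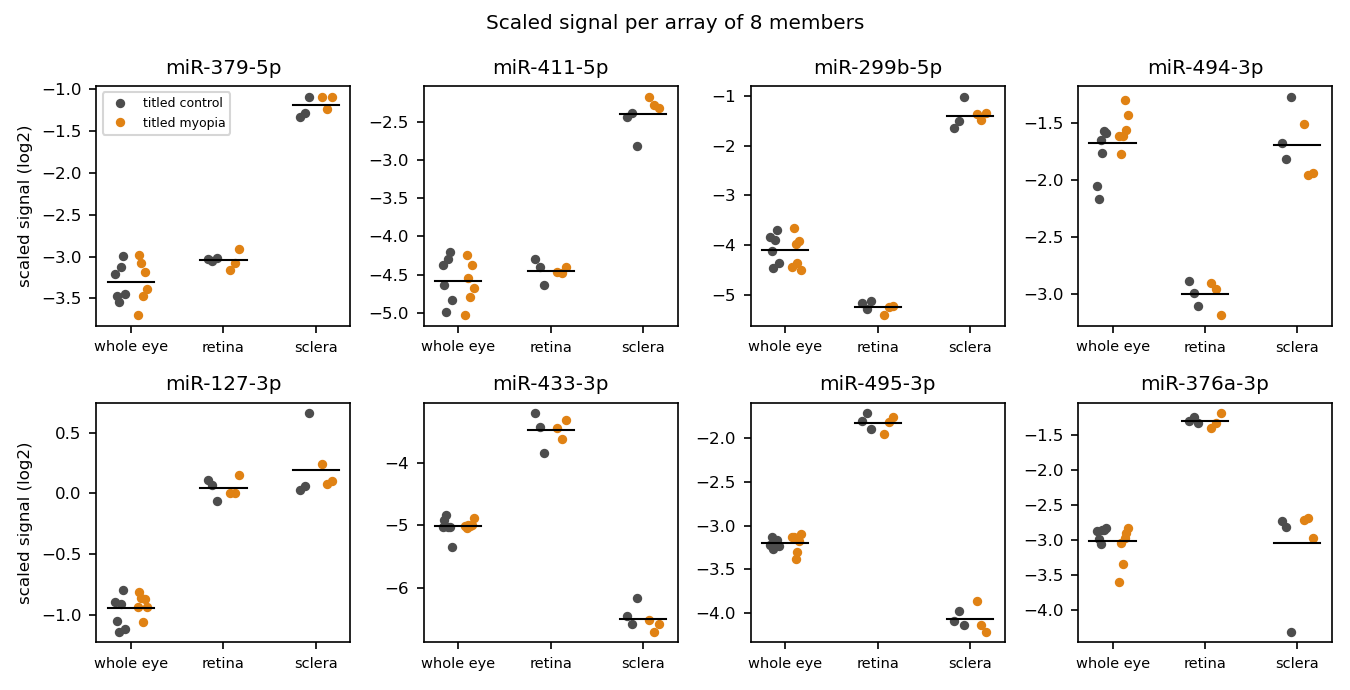
Scaled signal (log2 of the fraction of the array's 75th percentile, vertical axis) of 8 members on each of the 24 arrays, by tissue, with points coloured by titled arm and a line at each tissue's mean. miR-379-5p, miR-411-5p and miR-299b-5p are highest in sclera, miR-494-3p is lowest in retina, miR-127-3p has overlapping retina and sclera values, and miR-433-3p, miR-495-3p and miR-376a-3p are highest in retina on this scale, while after normexp background correction miR-433-3p falls below sclera in retina (-0.46).

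Among the members higher in retina, those antisense to Rtl1 differed from each other. miR-433-3p was at 7.0, 9.27 and 10.8 percent in retina, 2.47, 3.11 and 3.49 percent in whole eye and 0.959, 1.07 and 1.40 percent in sclera. The 3 tissues did not overlap, and retina exceeded sclera by 3.03 ± 0.10, or 8.14-fold (limma adjusted p = 6.44e-17, n = 6), although normexp correction turned the sign (-0.46). Relative to the median of all miRNAs the miR-433-3p difference was 0.4 to 2.21 over the 5 scalings. miR-434-3p had a median of 104 percent in retina and 45.2 percent in sclera, without overlap, a difference of 1.12 ± 0.08 that kept its direction under every scaling. miR-127-3p, in contrast, was at 95.7, 103 and 111 percent in retina and 102, 106 and 158 percent in sclera, with overlap and a difference of -0.15 ± 0.09 (limma adjusted p = 0.127), and at 45.3, 52.8 and 57.4 percent in whole eye. miR-136-5p was higher in retina by 1.15 ± 0.18, and its sclera arrays spread from 10.8 to 33.2 percent.

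In the miR-379 to miR-410 cluster, miR-495-3p was at 25.9, 28.5 and 30.3 percent in retina and 5.39, 5.80 and 6.87 percent in sclera, a 4.74-fold difference (2.24 ± 0.07, limma adjusted p = 7.31e-18). miR-487b-3p was at 45.9, 49.6 and 51.7 percent in retina and 8.88, 11.1 and 18.4 percent in sclera, a 4.19-fold difference. miR-376a-3p was at 37.9, 40.2 and 43.9 percent in retina and 5.07, 14.7 and 15.6 percent in sclera, where titled control replicate 3 was far below the other 5 arrays. None of these overlapped between the tissues. Relative to the median of all miRNAs, the differences of miR-495-3p, miR-487b-3p and miR-376a-3p were 1.21 to 1.68, 1.21 to 1.74 and 0.88 to 1.42 over the 5 scalings.

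miR-410-3p, near the far end of the cluster, was at 42.8, 45.6 and 49.5 percent in retina and 15.1, 15.9 and 18.0 percent in sclera. Its 2.81-fold difference (1.49 ± 0.06, limma adjusted p = 2.18e-15) held its direction in all 5 scalings.

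Detected on 6 of 6 retina arrays and 0 of 6 sclera arrays were miR-323-3p, miR-431-3p, miR-666-3p, miR-539-5p and miR-496-3p. miR-323-3p stood at 6.46, 6.79 and 7.11 percent in retina and 1.85, 2.42 and 2.64 percent in whole eye, so its retina level was at least 10.8-fold that of sclera. Detected on 5 and 4 of 6 retina arrays and on no sclera array were miR-485-3p and miR-673-3p, at least 5.51-fold and 3.01-fold higher. The bounds for the other 4 were at least 2.75-fold for miR-431-3p, 2.07-fold for miR-666-3p, 5.50-fold for miR-539-5p and 1.89-fold for miR-496-3p. The 5 members detected on 6 retina arrays turned sign under normexp correction, where signal below detection enters the level, and so did miR-485-3p (-1.0) and miR-673-3p (-1.17, and -0.14 in the authors' table). Relative to the median of all miRNAs, miR-323-3p lay at 0.27 to 3.04 over the 5 scalings. The others fell below that median at their lowest: miR-431-3p (-0.91), miR-666-3p (-0.55), miR-539-5p (-0.1), miR-496-3p (-0.35), miR-485-3p (-0.13) and miR-673-3p (-0.31). Retina arrays lay wholly above sclera arrays for 30 members, against 44.6% of all tested miRNAs, and wholly below for 9, against 25.4%. Of the 46 members called, 44 had the same sign on each of the 3 slides. Each tissue, and each titled arm within it, held the same array positions on every slide. Neither tissue nor arm can thus be told apart from position.

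On the percentile scale used throughout, members that did not pass the test between retina and sclera were miR-337-3p, miR-127-3p, miR-434-5p, miR-666-5p, miR-376c-3p, miR-134-5p, miR-154-5p and miR-409-3p. Each of these was called lower in retina under at least 2 of the other 4 scalings and higher under none. miR-337-3p (-0.92 to -0.42), miR-434-5p (-0.90 to -0.36) and miR-409-3p (-1.01 to -0.30) were called lower in all 4 of them, and miR-376c-3p in 3. miR-134-5p, known for limiting dendritic spine size in neurons, was dim throughout, at 0.812 to 1.87 percent in retina and 0.483 (the floor of the scale) to 1.30 percent in sclera, and was detected on 11 of 24 arrays.

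The 2 directions were not mixed evenly along the chromosome. The boundary below was drawn after the values were seen, so the split is a description. From miR-379-5p to miR-494-3p (chr12:110947280-110953598, 6.32 kb), 7 of 9 tested members were lower in retina (30.5% of all miRNAs were) and 2, miR-380-3p and miR-323-3p, were higher, with a median of -1.31. From miR-666-5p to miR-3072-5p (chr12:110955322-110986124, 30.8 kb), 24 of 30 were higher (58.7% of all miRNAs were), 1 (miR-541-5p) was lower and 5 were not called, with a median of 1.04. The 7 lower members of the first stretch were lower under all 5 scalings, while after normexp correction only 10 of all 54 tested members lay above 0, so the direction of the second stretch rests on the scale.

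On the percentile scale, members of opposite direction could be direct neighbours. The probe sites of miR-431-5p and miR-431-3p lie 27 bases apart, those of miR-323-3p and miR-329-3p 964 bases apart, and those of miR-299-3p and miR-380-3p 1145 bases apart. In all 3 pairs the member higher in retina turned sign under normexp correction (miR-431-3p -1.59, miR-323-3p -0.59, miR-380-3p -0.94), and miR-380-3p was called higher in 1 of 5 scalings. Relative to the median of all miRNAs, miR-323-3p stayed above 0 in all 5 (0.27 to 3.04), while miR-431-3p and miR-380-3p did not. In the group from miR-770 to miR-136 (chr12:110801930-110833597, 31.7 kb, 21 members), 12 were tested, of which 7 were higher (58.7% of all miRNAs were), 2 lower (30.5%) and 3 not called. Of those 3, miR-337-3p and miR-434-5p were called lower in the other 4 scalings. Of the 7 higher, miR-673-3p, miR-431-3p, miR-433-5p, miR-433-3p and miR-136-3p turned negative under normexp correction (-1.17, -1.59, -1.05, -0.46 and -0.49). miR-136-3p was called higher in 2 of 5 scalings.

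**Figure D2:**
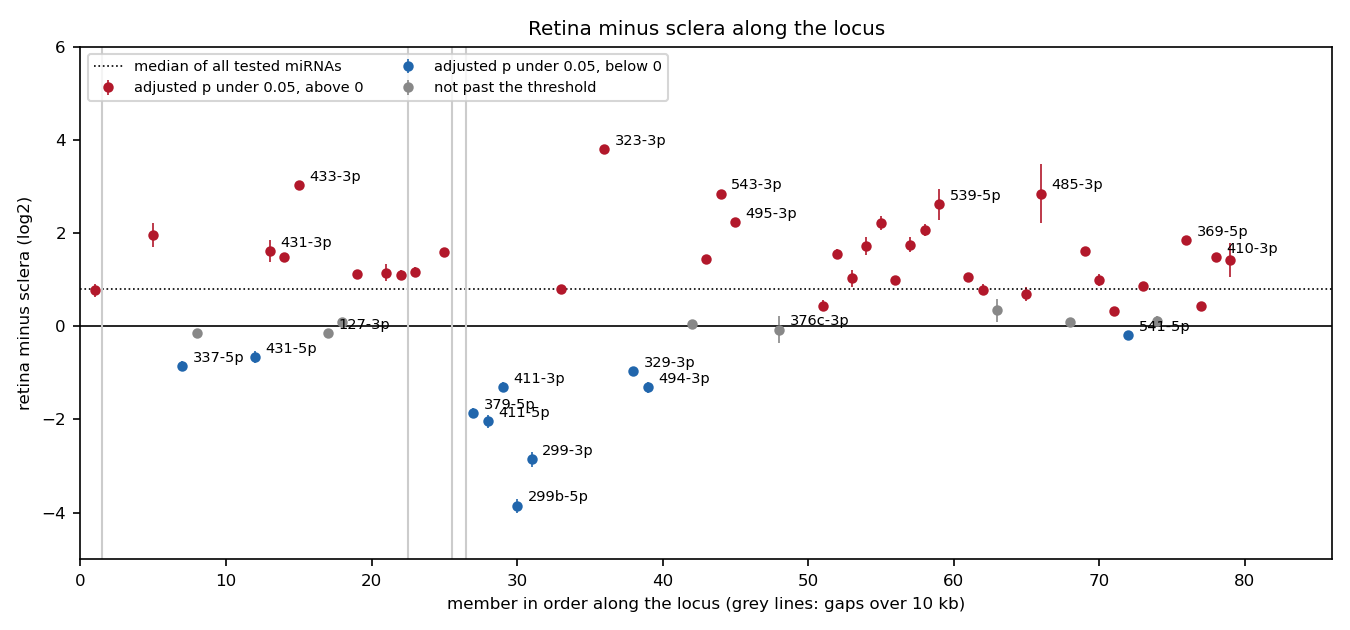
Retina minus sclera (log2, vertical axis, bars show SE) for the 54 tested members in their order along the locus (horizontal axis), coloured by the limma call, with the median of all tested miRNAs (0.81) dotted. Blue members gather at the start of the miR-379 to miR-410 cluster and red ones after it. All 10 blue members kept their direction under 5 scalings, whereas only 4 of the 36 red ones were called higher in all 5. Normexp correction left 6 members higher and put the median of all tested miRNAs at -0.87.

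Members with similar seeds were set side by side. miR-379-5p and miR-411-5p, whose seeds match at 6 of 7 bases, both were lower in retina (-1.86 and -2.04), and miR-376b-3p and miR-376a-3p, also matching at 6 of 7, both were higher (1.55 and 1.73), as were miR-300-3p and miR-381-3p (1.0 and 1.75). Also alike at this seed distance were miR-1906 and miR-666-3p (0.77 and 1.44), miR-485-3p and miR-154-3p (2.85 and 1.61), and miR-154-3p and miR-369-3p (1.61 and 0.43). Each of these members turned sign under normexp correction (miR-1906 -0.32, miR-666-3p -1.33, miR-485-3p -1.0, miR-154-3p -0.29, miR-369-3p -0.61). The remaining pairs with both members tested ran opposite ways. miR-411-3p was at -1.30 and miR-410-3p at 1.49, and miR-299b-5p at -3.85 and miR-409-5p at 0.86. The latter pair rests on the miR-299b-5p seed, although the probes do not tell miR-299b-5p from miR-299a-5p. Pairs with similar seeds were found with like and with opposite directions. The probes of miR-376a-3p lie 2 mismatches from miR-376b-3p, and those of miR-300-3p and miR-381-3p lie 2 from each other. Shared signal within these pairs was not tested. miR-300-3p lay above 0 in all 5 scalings, while miR-376b-3p (-0.26), miR-381-3p (-0.50) and miR-409-5p (-0.69) turned sign under normexp correction. miR-376b-3p, miR-381-3p and miR-300-3p were called higher in 4 of 5 scalings and miR-409-5p in 2.

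A hairpin can yield a mature miRNA from either strand. Of the 25 names with both strands on the array, 16 had both tested between retina and sclera, 7 had 1 strand detected on no array, and 2 had neither strand detected. The difference of the 2 strands in their retina-sclera value had a median of 1.07 and ran from 0.05 (miR-136, 1.15 for the 5p and 1.1 for the 3p strand) to 2.28 (miR-431). Under normexp correction the miR-136 strands lay at 0.46 (5p) and -0.49 (3p). On this scale miR-431 was the 1 pair called in opposite directions, with the 5p strand lower in retina (-0.66 ± 0.12) and the 3p strand higher (1.62). miR-431-5p was at 2.55, 2.93 and 2.95 percent in retina and 3.90, 4.59 and 4.78 percent in sclera. miR-431-3p was at 1.39, 1.79 and 2.45 percent in retina and was detected on no sclera array, and its sign turned under normexp correction (-1.59) and in the authors' table (-0.98), so that both strands then lay lower. For miR-154 the 5p strand was not called (0.10) and the 3p strand was higher (1.61), and for miR-433 the values were 1.48 and 3.03. For miR-434 they were 0.09 and 1.12 here, but the 5p strand was called lower in the other 4 scalings (-0.90 to -0.36) and the 3p strand higher in all 5, so miR-434 was an opposite pair in those 4. Other names, among them miR-376a, miR-376b, miR-154 and miR-409, also had strands called opposite ways in at least 1 scaling. The 5p strand of miR-376a was called lower in 2 of 5 scalings and its 3p strand higher in all 5. For miR-376b the 5p strand was called lower in 3 and the 3p strand higher in 4. The miR-299 names cannot be read as 1 hairpin, because the miR-299b-5p probes match both miR-299a-5p and miR-299b-5p.

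**Figure D3:**
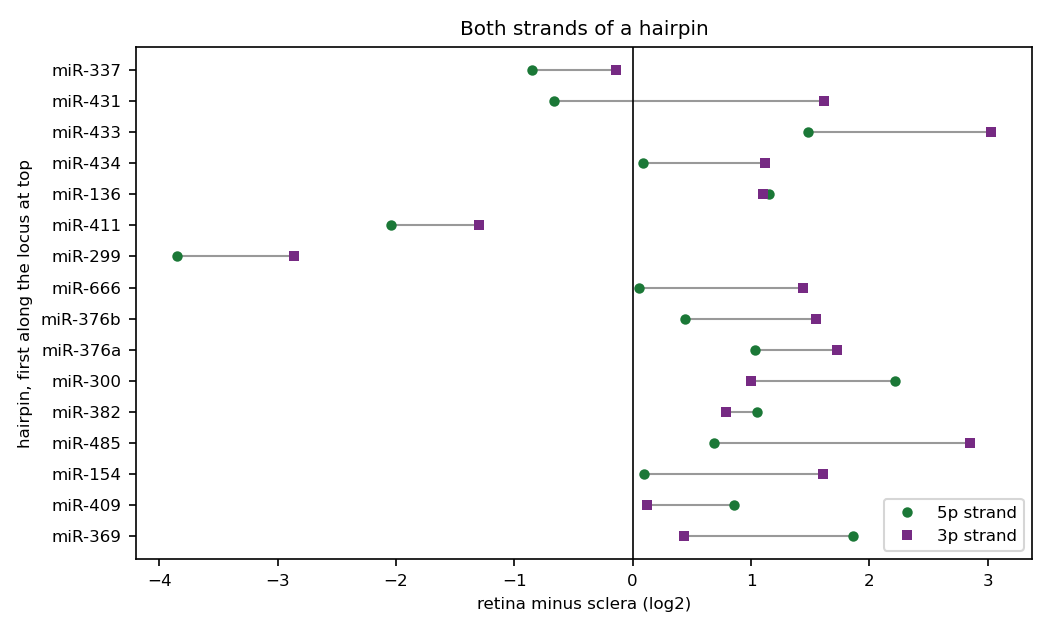
Retina minus sclera (log2, horizontal axis) of the 5p strand (circle) and the 3p strand (square) for the 16 hairpin names with both strands tested, first along the locus at the top. The strands of miR-136 lie 0.05 apart on this scale, while those of miR-431 lie 2.28 apart on either side of 0. The miR-431 split was lost under normexp correction and in the authors' table. miR-434 was called opposite ways in the 4 other scalings, and further names, among them miR-376a and miR-376b, in some of them.

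Set against whole eye, most members were higher in retina. Of the 54, 48 were higher and 2 lower, against 65.0% and 23.0% of all 426 tested (88.0% either way), with a median of 1.20 against 0.70 for all miRNAs (limma adjusted p under the threshold of 0.05, 6 retina and 12 whole-eye arrays). The split was 42 higher and 5 lower with the percentile over all miRNAs (all miRNAs 42.5% and 32.2%), 43 and 5 after quantile normalization (47.4% and 30.8%), 36 and 5 in the authors' table (44.4% and 29.6%), and 13 and 2 after normexp correction (26.3% and 12%). Between 36 and 45 of the 54 lay above the median of all miRNAs in the 5 scalings, and no scaling turned the median. Called higher under all 5 were 13 members: miR-1906, miR-127-3p, miR-434-3p, miR-136-5p, miR-495-3p, miR-376a-3p, miR-300-3p, miR-487b-3p, miR-382-5p, miR-154-5p, miR-369-5p, miR-410-3p and miR-3072-5p. Of these, miR-1906 has probes that also map to chrX. miR-299b-5p (-1.14) and miR-494-3p (-1.33) were lower under all 5. Retina arrays lay wholly above whole-eye arrays for 42 members (40.6% of all miRNAs did so) and wholly below for 2 (16.9%).

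In sclera against whole eye, 26 members were higher and 13 lower, against 30.8% and 40.1% of all miRNAs (70.9% either way), and the medians were 0.23 and -0.15. The counts were 30 and 6 with the percentile over all miRNAs (all miRNAs 37.1% and 31.0%), 29 and 7 after quantile normalization (34.0% and 35.2%), 37 and 5 in the authors' table (42.7% and 24.6%) and 53 and 0 after normexp correction (73.9% and 11.3%). Of the members, 25 were called higher under all 5 scalings and 0 lower, with 32 to 39 of 54 above the median of all miRNAs. The largest difference among members detected in both tissues was that of miR-299b-5p, at 2.71 ± 0.13, followed by miR-411-5p (2.18), miR-379-5p (2.11) and miR-411-3p (1.99). miR-337-5p, at 11.5, 13.0 and 19.8 percent in sclera and 3.51, 4.12 and 4.94 percent in whole eye, differed by 1.74. Sclera arrays lay wholly above whole-eye arrays for 15 members (20.0% of all miRNAs) and wholly below for 5 (25.4%).

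Both comparisons use the same 12 whole-eye arrays, so their values are set side by side only. On the percentile scale miR-127-3p was at 1.0 in retina and 1.15 in sclera against whole eye, and miR-154-5p at 1.09 and 0.99. miR-433-3p was at 1.53 and -1.49, miR-487b-3p at 0.99 and -1.08, and miR-495-3p at 1.38 and -0.87, where normexp correction turned the sclera values of miR-433-3p (0.94) and miR-495-3p (0.51). miR-154-5p was at 50.8, 53.6 and 57.4 percent in retina, 47.5, 50.8 and 51.4 percent in sclera and 22.4, 25.6 and 28.9 percent in whole eye, which also holds lens, cornea and other parts. The summed level of the 4 lens and cornea epithelium markers was 906 to 1730 percent in whole eye, 11.2 to 456 percent in retina and 114 to 897 percent in sclera, and its part in these differences was not tested.

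Form deprivation in whole eye was accompanied by a higher level of 2 of the 44 members tested and a lower level of 0. Among all 341 miRNAs tested, 10.3% were called higher and 0.0% lower (limma with Benjamini-Hochberg adjustment), and the members' median difference of 0.09 was close to the 0.08 of all miRNAs. Both members that passed were also those whose arms did not overlap, where 9.68% of all miRNAs had the myopia arrays wholly above. At an unadjusted p under 0.05 the count was 8 members, none of them lower. Under quantile normalization 21 members were called lower, along with 18.8% of all miRNAs, and the members' median moved to -0.30 against -0.12 for all miRNAs. The other 3 scalings called 2 members higher and 0 lower.

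miR-376c-3p was at 8.18, 9.81 and 13.6 percent in the 6 control arrays and 20.7, 32.9 and 56.0 percent in the 6 myopia arrays. The difference was 1.75 ± 0.25, or 3.36-fold (limma adjusted p = 3.20e-04), and it was called in each of the 8 alternatives that refit the 12 arrays, at 0.70 to 1.75. miR-3072-5p, the last detected member along the locus, was at 4.57, 5.95 and 6.87 percent in control and 7.89, 11.6 and 23.2 percent in myopia. Its difference was 1.04 ± 0.22, or 2.05-fold (limma adjusted p = 0.0059), with 0.39 to 1.04 over the same alternatives, all called. The probes of miR-3072-5p, of 12 and 13 bases, each lie 2 mismatches from miR-149-3p, and signal from that miRNA was not tested. Within slides 1, 2 and 3, the differences were 1.38, 2.29 and 1.33 for miR-376c-3p and 1.07, 1.44 and 0.37 for miR-3072-5p, with 2 arrays per arm on each.

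The other members of the miR-376 family did not pass, with differences of -0.11 ± 0.12 for miR-376a-3p, -0.05 ± 0.07 for miR-376b-3p, 0.18 ± 0.10 for miR-376b-5p and 0.04 ± 0.16 for miR-376a-5p. miR-376c-3p is measured by 4 probes of different length, and the gain was of a similar absolute size on each. The median signal went from 0.433 to 45.0 on the probe of 18 bases, from 7.14 to 60.6 on that of 19, from 31.1 to 75 on that of 20 and from 55.5 to 104 on that of 21, in scanner units. For miR-3072-5p it went from 14.9 to 32.1 on the probe of 12 bases and from 38.2 to 57.5 on that of 13. On the same arrays, the bright-corner control spots, which hold no mouse miRNA, read 237 to 497 in the myopia arm and 123 to 220 in the control arm (exact permutation test, two-sided, p = 0.00216, the smallest that 6 against 6 can give). The negative control spots read lower in the myopia arm, at 0.726 to 2.09 against 2.22 to 3.77 (exact permutation p = 0.00216). The part of this control-spot difference in the miR-376c-3p and miR-3072-5p results was not tested, and the array position on the slide also differed between the arms, so arm and position cannot be told apart.

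**Figure D4:**
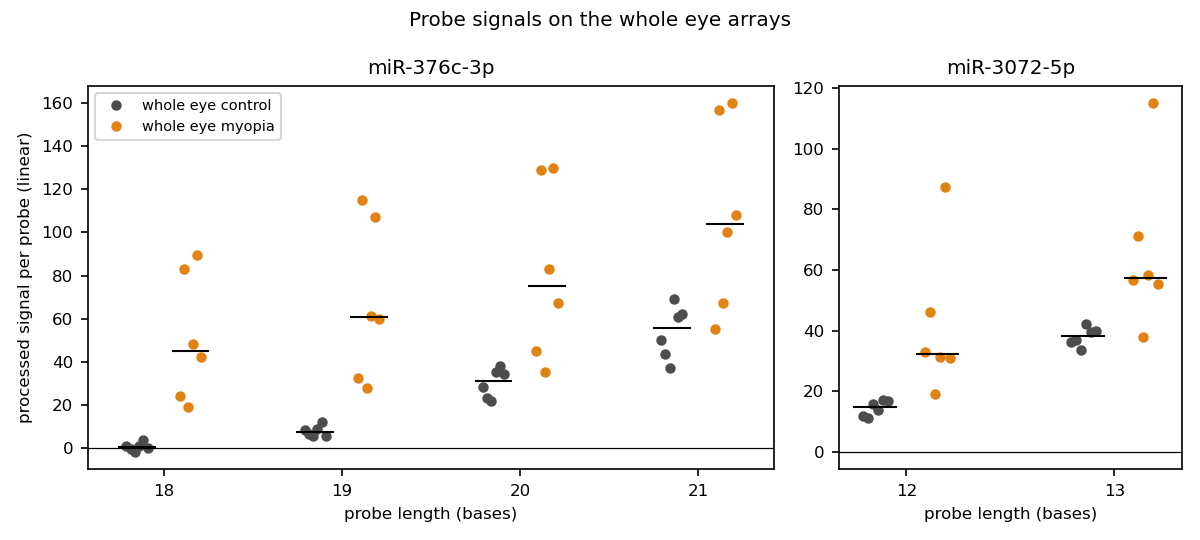
Processed signal (scanner units, linear, vertical axis) of each probe of miR-376c-3p and miR-3072-5p, by probe length (horizontal axis), on the 6 control and 6 myopia whole-eye arrays, with lines at the medians. The probe of 18 bases to miR-376c-3p reads near 0 in control (median 0.433) and 45.0 in myopia, and the arms also separate on the probe of 12 bases to miR-3072-5p. They overlap on the probes of 20 and 21 bases to miR-376c-3p and on that of 13 bases to miR-3072-5p.

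In retina, 0 of 53 members passed between the titled arms (limma with Benjamini-Hochberg adjustment, n = 3 and 3). This was also so for 0 of all 396 miRNAs, 0.0% in either direction, while 1 member and 20 of all miRNAs had an unadjusted p under 0.05. The members' median was -0.05 against -0.07 for all miRNAs. Most were close to 0, and the largest value was that of miR-673-3p, at 8.97, 9.78 and 3.63 percent in the titled myopia arrays and 3.18, 1.09 and 0.156 percent (the floor) in the titled control arrays. The arms did not overlap, but the difference of 3.07 ± 1.17 did not pass (limma adjusted p = 0.537). miR-376c-3p was at 74.5, 35 and 32.6 percent in titled myopia and 39.3, 22.6 and 16.7 percent in titled control, with overlap, and miR-3072-5p at 61.4, 42.7 and 32.4 against 52.1, 18.7 and 6.39 percent. The next smallest p-values were those of miR-539-5p (1.48), miR-1906 (0.37), miR-341-3p (0.25) and miR-666-5p (1.29), none of which passed. In titled control replicate 1 miR-376c-3p, miR-3072-5p and miR-673-3p stood highest of their arm. The bright-corner control spots also read highest of that arm there, at 448 against 192 and 253 in the other titled control arrays and 370 to 556 in titled myopia, and their part in these values was not tested. Without that array 2 members were called, and 55 of all miRNAs. Titled myopia arrays lay wholly above for 3 members and wholly below for 0, against 8.33% and 2.02% of all miRNAs.

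In sclera, 0 of 43 members passed (limma, n = 3 and 3), as did 0 of 311 miRNAs (0.0%), and the counts with an unadjusted p under 0.05 were 0 members and 7 of all miRNAs. The members leaned one way without passing: 39 of 43 (90.7%) had a difference above 0, against 66.6% of all miRNAs, and the medians were 0.21 and 0.08. That count was 35, 33, 24 and 16 of 43 with the percentile over all miRNAs, quantile normalization, the authors' table and normexp correction, while the members above the median of all miRNAs numbered 32 on the scale used here and 32, 33, 32 and 21 in the same order. Relative to all miRNAs the lean was thus smaller under normexp correction and about the same under the others. Titled myopia arrays lay wholly above for 12 members and wholly below for 0, against 9.65% and 3.54% of all miRNAs.

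miR-379-5p, for example, was at 63.0, 61.0 and 62.1 percent in titled myopia sclera and 50.1, 53.9 and 51.6 percent in titled control sclera, with no overlap and a difference of 0.26 that did not pass (limma adjusted p = 0.887). The other members of smallest p were miR-380-3p (0.40), miR-376a-5p (0.78), miR-431-5p (0.25) and miR-411-5p (0.46), at the same adjusted p. miR-411-5p was at 29.7, 29.9 and 26.5 against 23.3, 25 and 15.5 percent. The lowest of the 6 values fell on titled control replicate 1 for 18 members and on titled control replicate 3 for 20, against 28.9% and 40.5% of all miRNAs. Without titled control replicate 1, 32 of 43 members lay above 0 (56.9% of all miRNAs), and without titled control replicate 3, 38 of 43 (52.3%). Leaving out each array in turn left 32 to 41.

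**Figure D5:**
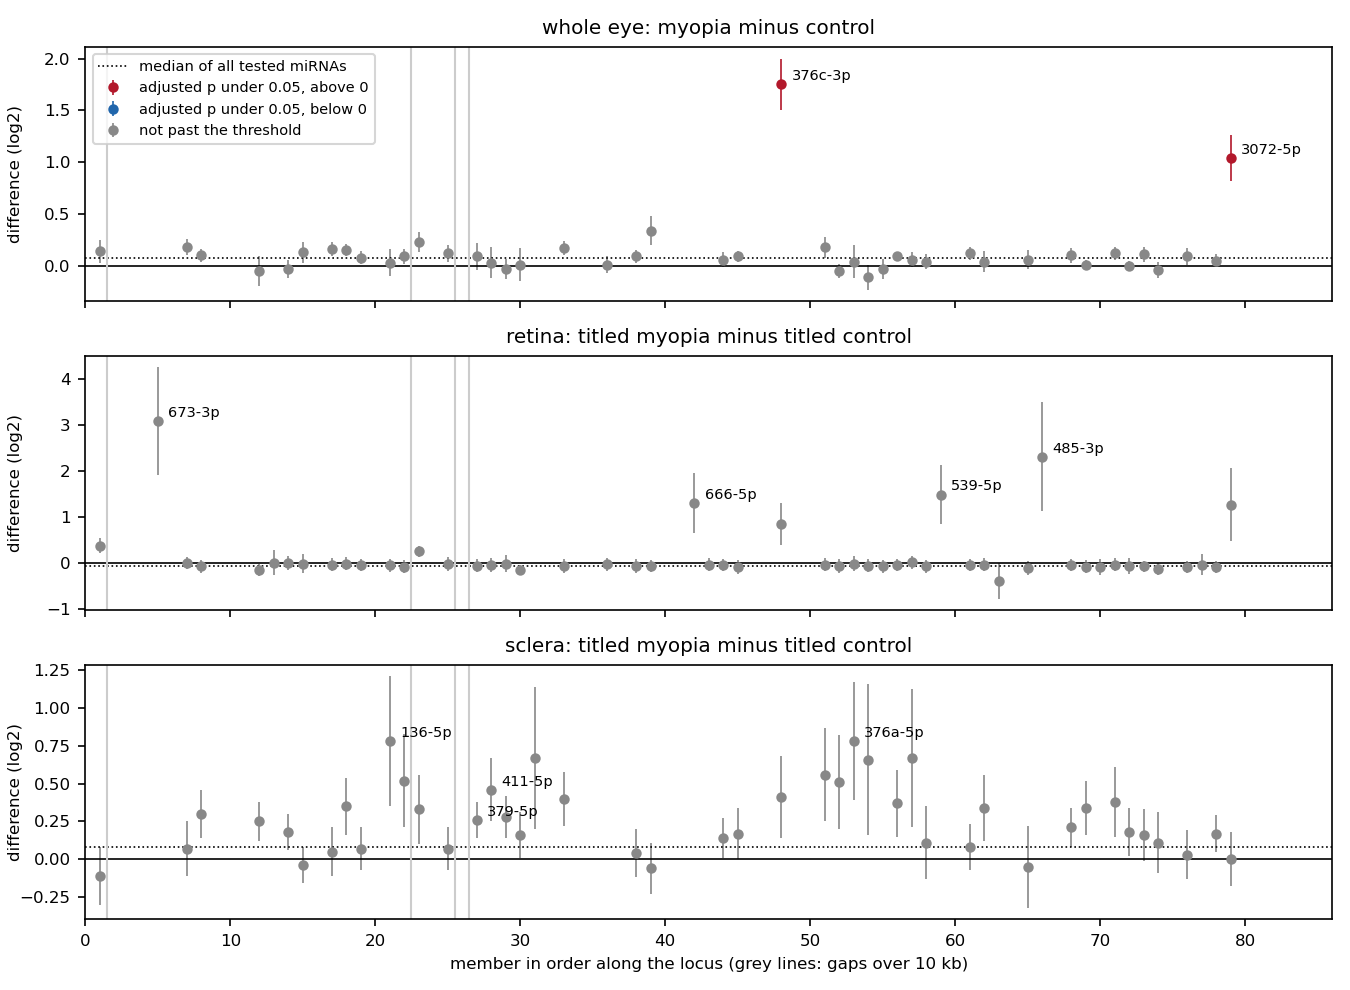
Titled myopia minus titled control (log2, vertical axis, bars show SE) for the tested members in order along the locus, in whole eye (top), retina (middle) and sclera (bottom), with the median of all tested miRNAs dotted. Only miR-376c-3p (1.75) and miR-3072-5p (1.04) in whole eye passed the threshold; 39 of 43 sclera members lie above 0, a count of 16 after normexp correction and 24 in the authors' table.

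The difference of the arm effect between tissues was tested across all 24 arrays. miR-673-3p had an arm-effect difference of 2.35 ± 0.52 for retina minus sclera (limma adjusted p = 0.0335, with 1.64% of all miRNAs called higher) and of 2.32 ± 0.45 for retina minus whole eye (limma adjusted p = 0.00792, with 1.17%). It was detected on no whole-eye or sclera array and entered the fit through the retina arrays, so with the other tissues at the floor these values restate the retina arm difference, which did not pass on its own (adjusted p = 0.537), and they are no test of a difference between tissues. The retina minus sclera call was kept in 8 of 24 fits that left out 1 array, with adjusted p up to 0.205, and the retina minus whole eye call in 21 of 24. After normexp correction the values were -0.01 and -0.24, and with the arms taken from the phenotype field -2.35 and -2.38. For sclera minus whole eye 0 of 54 members passed (limma, 7 with an unadjusted p under 0.05), against 2.35% of all miRNAs called lower. miR-376c-3p differed there by -1.41 ± 0.51 (limma adjusted p = 0.155), and its retina effect differed from that of whole eye by -0.77 ± 0.51. The next smallest p-values for sclera minus whole eye were those of miR-300-5p (0.61), miR-376b-3p (0.47), miR-154-3p (0.26) and miR-494-3p (-0.47). With the replicate number as a block within tissue, the miR-376c-3p value for sclera minus whole eye passed (-1.41, limma adjusted p = 0.0394). The labels do not say whether same-numbered samples are paired, so whether its arm effect differs between tissues depends on that choice.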

How the data were processed

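The deposited scanner files hold a processed intensity for each spot, background-subtracted and spatially detrended, with a detection call per miRNA. The software was Agilent Feature Extraction, given as version 11 by the submitters' processing notes and as 11.0.1.1 per the file headers. The authors' value table is on a log2 scale, with no stated rule for dim probes. The number of unmapped columns was 0.

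Spots were averaged per probe, leaving out outlier flags and control spots, and probes were summed per miRNA. Each sum was scaled to the 75th percentile of its array, taken across those miRNAs that every array in the fit detected. Values under a floor, the lowest detected signal of the median array, were set to it before taking log2. Tests covered each miRNA that at least 2 in 3 arrays of some group detected. Differences were tested with limma 3.58.1 (R 4.3.3, two-sided) with Benjamini-Hochberg adjustment over all miRNAs tested (341 in whole eye, 396 in retina, 311 in sclera, 426 over 24 arrays) and a threshold of 0.05. Arms were fitted within each tissue, and tissue comparisons and differences of the arm effect over all 24 arrays in 6 groups. Control spots were compared with exact permutation tests. The procedure was tested on simulated data. Python 3.11.15 with pandas 2.3.3, scipy 1.17.1 and matplotlib 3.10.9 did the rest.

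The members and lists were chosen with earlier results of these data known. Members were named by rule: those past the threshold in the arm comparisons, or the 5 of smallest p where none passed, and in the tissue comparisons up to 8 largest differences each way among members detected on every array of both tissues, and those detected in 1 tissue only. The other strand of a named hairpin, extremes of each sub-cluster (split at gaps over 10000 bases) and members with like seeds were added by the same rule, and opposite neighbours, probes and the split of the large cluster after values were seen. Same-numbered samples within a tissue correlated at -0.22 to 0.49 in whole eye, -0.22 to 0.64 in retina and -0.37 to -0.10 in sclera. With so few pairs this does not settle whether the numbers pair samples, and the labels do not say. Alternatives changed the scaling set, normalization, background correction (normexp, offset 50), value source, detection filter, slide, replicate block, arm labels and left-out arrays. The longest probe alone and single slides were added after seeing the data. The number of arrays and the signal over background limit the precision.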

Additional observations from a re-analysis of the deposited data

Results flagged for a closer look

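miR-136-5p stood low on whole-eye myopia replicate 1, at 17.2 percent of the array percentile against a group median of 27.9 percent, with a gap to the nearest other array of 0.659 of the group's range. Of 52 groups of arrays examined for the named members, this was the only 1 past the limit, and chance alone passes it in about 1 of 20.

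The arm effect of miR-673-3p differed between tissues, by 2.35 on the log2 scale for retina minus sclera and by 2.32 for retina minus whole eye, by title. Both values rest on retina arrays alone, since miR-673-3p was detected on no array of the other tissues, so they restate a retina difference that did not pass by itself, and their sign rests on which label gives the arm.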

How the results depend on the processing

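Apart from leaving out arrays, alternatives for the named members gave 728 values with the same direction and call, 47 that lost the call, 1 that gained it and 31 that turned sign. Leaving out arrays gave 1474, 23, 1 and no turned sign. Counts below are members called higher and lower. For retina minus sclera (36 and 10), the percentile over all miRNAs gave 22 and 17, quantile normalization 17 lower, normexp 6 and 34, and 22 and 22 came from the authors' table. For retina minus whole eye (48 and 2), lower counts were 5 with all miRNAs, quantile and the authors' table, and normexp gave 13 higher. For sclera minus whole eye (26 and 13), lower counts were 6, 7, 0 and 5 with all miRNAs, quantile, normexp and the authors' table, 6 within slide 1 and 8 within slide 3, and normexp gave 53 higher. For whole-eye arms (2 and 0), quantile normalization gave 21 lower, and 0 were higher within slide 3. For the arm effect of retina minus sclera (1 higher), 0 were higher with normexp, the authors' table, no detection filter, the longest probe or phenotype-field arms, which gave 1 lower. For retina minus whole eye (1 higher), 0 were higher with normexp, the authors' table, the longest probe or phenotype-field arms, which gave 5 lower, and 1 was lower with all miRNAs and with quantile normalization.

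Signs turned under normexp for retina minus sclera in miR-433-3p (-0.46), miR-369-5p (-0.17), miR-381-3p (-0.50), miR-154-3p (-0.29), miR-376b-3p (-0.26), miR-431-3p (-1.59), miR-323-3p (-0.59), miR-666-3p (-1.33), miR-539-5p (-0.96) and miR-496-3p (-1.20). In the authors' table they turned in miR-431-3p (-0.98), miR-666-3p (-0.62) and miR-496-3p (-0.42). Under normexp the median of all tested miRNAs in this comparison was -0.87. For retina minus whole eye, miR-666-3p turned with normexp (-0.08) and in the authors' table (-0.04). For sclera minus whole eye, normexp turned miR-433-3p (0.94), miR-495-3p (0.51), miR-369-5p (0.79), miR-154-3p (0.82), miR-381-3p (0.96), miR-376b-3p (0.82), miR-410-3p (0.46) and miR-323-3p (0.96). miR-410-3p turned with all miRNAs (0.09) and quantile (0.02), and miR-381-3p in the authors' table (0.14) and within slide 1 (0.00). The arm effect of miR-673-3p turned with normexp (-0.01 against sclera, -0.24 against whole eye) and with phenotype-field arms (-2.35 and -2.38). By its construction normexp adds an offset of 50 to every probe before scaling, which weighs more on the dimmer sclera arrays. The part of this offset in the turns was not tested, nor was the cause of any other turn.

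The replicate block gave 4 members higher in whole eye, and within tissues 1 member lower for the arm effect of sclera minus whole eye (miR-376c-3p, -1.41, limma adjusted p = 0.0394). It moved no other count of calls by over 1.5 times. Same-numbered arrays of a tissue also shared a slide, and the labels do not say whether they hold both eyes of a mouse. Of these pairs, 2 of 6 in whole eye, 1 of 3 in retina and 0 of 3 in sclera correlated best with their own number.

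Leaving out 1 array gave 2 to 2 higher and 0 lower in whole eye, 0 to 2 higher in retina (2 without titled control replicate 1), and 0 in sclera. It gave 36 to 37 higher and 9 to 12 lower for retina minus sclera, 47 to 48 and 2 to 3 for retina minus whole eye, and 25 to 29 and 11 to 13 for sclera minus whole eye. For the arm effect it gave 0 to 5 higher for retina minus sclera (5 without retina titled control replicate 1), 0 to 1 for retina minus whole eye, and 0 for sclera minus whole eye. For members below detection in 1 tissue only a bound can be given, and small arm effects in retina and sclera were not resolvable with 3 arrays per arm.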

Other observations

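Among 7 tested miRNAs of other imprinted loci, 3 were higher and 1 was lower in retina than in sclera, with a median of 0.02, on the percentile scale. The lower one was miR-675-3p (-2.37), processed from the maternally expressed H19 transcript, which was detected on 6 of 6 sclera arrays and on no retina or whole-eye array.

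Of the 22 members detected on no array, several are the second strand of a hairpin whose other strand was detected. miR-127-5p and miR-323-5p were detected on 0 arrays, while miR-127-3p was detected on 24 and miR-323-3p on 18. Both strands of miR-540 and of miR-654, and the lone members miR-882 and miR-758-3p, were detected on no array.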
